A study of Mus musculus with 10 samples.

Results

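Beta cells of the embryonic mouse pancreas were compared between the embryonic days E14.5 and E17.5 in droplet single-cell RNA sequencing. A cell was counted as a beta cell when it held at least 200 detected genes, gave at least 1% of its unique molecular identifiers (UMIs, the count of captured transcripts) to the insulin genes Ins1 and Ins2 together, under 1% to glucagon (Gcg) and under 0.5% to somatostatin (Sst), and held at least 1 UMI of the granule protein gene Chga and at most 1 of the collagen gene Col3a1. This rule kept 1500 of the 40182 cells with at least 200 genes in 6 libraries. The 4 libraries from E14.5 held 43 beta cells in version 1 (v1) batch 1, 26 in v1 batch 2, 229 in version 2 (v2) and 398 in the Fev-Cre library. The 2 libraries from E17.5 held 61 in v1 and 743 in v2. Version 1 and version 2 name the kit generation, and the Fev-Cre library was made with the v2 kit. The embryos of 5 libraries were untreated Swiss Webster mice without a transgene. Live cells were sorted for v1, and CD140a+ mesenchymal cells were also removed for v2. The Fev-Cre library came from Fev-Cre;ROSA26mTmG embryos of lines kept on C57BL/6J, in which Cre driven by Fev, an endocrine progenitor gene, switches membrane TdTomato to membrane GFP, and it joined all sorted GFP+ cells with GFP- TdTomato+ cells. Each library was 1 suspension of pancreata pooled from 1 litter, and the 2 wells of the E17.5 v2 suspension were summed. The library was therefore the replicate (n = 4 and n = 2), and cells were not. Tissue was dissociated for longer at E17.5 than at E14.5, so the effect of dissociation time cannot be told apart from the stage. The v2 stages were collected on different days, while v1 batch 2 held both stages.

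Beta cells secrete insulin in answer to glucose. They arise from Neurog3+ endocrine progenitors through a Fev+ step, and in the embryo they make insulin before the machinery of glucose sensing, proinsulin cleavage and zinc loading of the secretory granule is complete. Prolactin and the placental lactogens act on islets through the prolactin receptor (Prlr), which signals through JAK2 and STAT5 and turns on the feedback inhibitors Cish and Socs2.

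The label was checked on 10 beta cell markers that the rule did not use. All of them except Mafa were detected in every library, and each detected marker was higher in the selected cells than in the other cells of its library. Mafa, a factor of mature beta cells, was at 0 in 4 of the 6 libraries and below the filter on low counts. The beta cells of a library held between 169586 and 16182736 UMIs in all. The median beta cell held 4067 to 8964 UMIs in 5 libraries and 21334 in E17.5 v2. Haemoglobin transcripts took 0.000422% to 0.425% of beta cell UMIs at E14.5, 1.40% in E17.5 v1 and 3.29% in E17.5 v2. None of the 10 glial and neuronal markers, 1 of 10 endothelial, 3 of 12 immune and 5 of 18 mesenchymal markers passed the filter on low counts, and none of these was called. Of the acinar markers 14 of 32 passed and of the ductal and trunk markers 10 of 14, and edgeR called none of them with all libraries, with 6 and 2 at an unadjusted p below 0.05. The acinar list summed to 3027, 116, 5777 and 863 CPM at E14.5 and to 50.3 and 3432 CPM at E17.5, so libraries of both stages were high and low. With v1 batches 1 and 2 as separate blocks 5 of 19 acinar genes tested were called higher. That setting called 60 of all 10094 genes in either direction. In v2 libraries alone 8 of 24 were called higher and 3 lower, where 0.889% and 0.854% of all 11590 genes were. That fit has a single E17.5 library, so its spread comes from the E14.5 v2 and Fev-Cre libraries, which also differ in strain and sort. The part of acinar transcripts in the results was not tested. No 2 matrices shared more than 1 beta cell barcode.

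Insulin chose the cells, so its level is described here and not tested. The median beta cell gave 10.4%, 7.57%, 10.5% and 5.32% of its UMIs to insulin in E14.5 v1 batch 1, v1 batch 2, v2 and Fev-Cre, an order kept for all E14.5 values given in this way. At E17.5 the median was 17.8% in v1 and 37.9% in v2. Both E17.5 medians lay above all 4 E14.5 medians. Cells with under 5% insulin made up 34.1% to 47.7% of the beta cells at E14.5, 13.1% in E17.5 v1 and 9.15% in E17.5 v2. At the edge of the rule, 16 cells held 1% to 1.1% insulin, and 15 cells just outside held 0.9% to 1%. Immune cells of the same libraries, which do not make insulin, gave at most 0.0897% of their UMIs to it. The ratio of Ins1, the second rodent insulin gene, to Ins2 was 0.212, 0.219, 0.243 and 0.368 at E14.5, 0.283 in E17.5 v1 and 0.588 in E17.5 v2. This ratio did not separate the stages, since the Fev-Cre library lay above E17.5 v1. Of the other genes of the rule, Chga was at 1367 to 1797 CPM at E14.5 (CPM, UMIs of the summed beta cells scaled to one library size after TMM normalization) and at 2316 and 5029 CPM at E17.5, and Gcg was at 111 to 338 CPM and at 34.6 and 111 CPM. Sst was at 17.2, 4.83, 10.5 and 17.1 CPM at E14.5 and at 66 and 98.2 CPM at E17.5, without overlap of the stages.

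**Figure D1:**
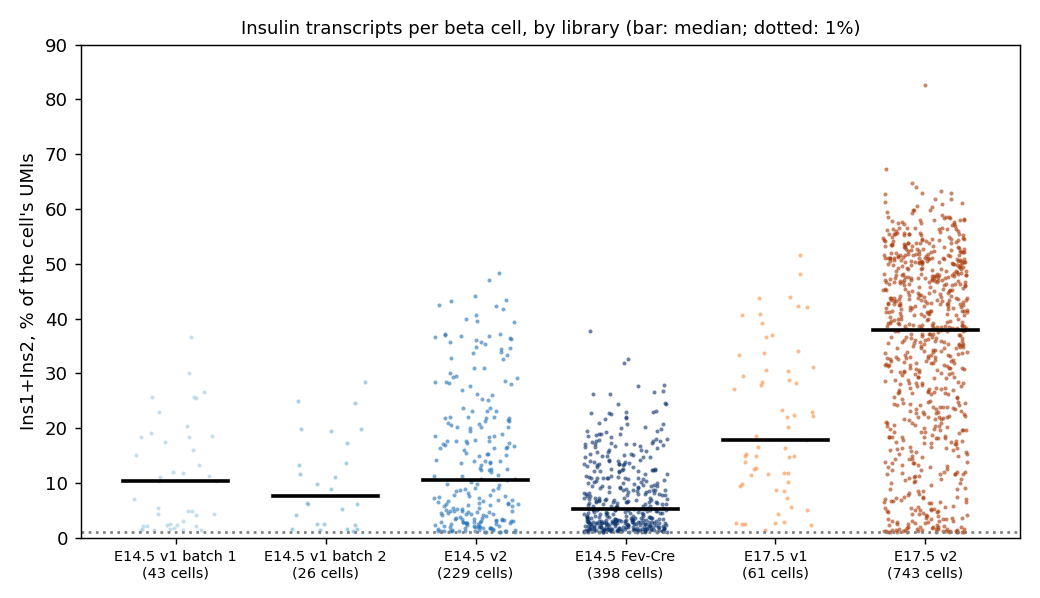
Share of each beta cell's UMIs that came from Ins1 and Ins2 (vertical axis, %), by library; each point is a cell, the bar is the library median and the dotted line is the 1% limit of the rule. The E14.5 medians sit between 5.32% and 10.5%, and the E17.5 medians at 17.8% and 37.9%.

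UMI sums of the beta cells of each library were tested across 8875 genes with edgeR's quasi-likelihood test, with the kit as a block. Folds are E17.5 over E14.5. Calls needed both an adjusted p under 0.05 and a change of 2-fold or more. This called 44 genes (0.496% of those tested), 28 higher (0.315%) and 16 lower (0.18%) at E17.5. All 44 kept their direction in each of the 4 comparisons of libraries made with the same kit, and the stages did not overlap for 43 of them. The same libraries had chosen these genes, so this agreement is a description and not a further test. Non-overlap was common among all tested genes, at 7% above and 5.77% below. On library totals without TMM the median of all genes went from -0.02 to -0.68 on the log2 scale, and the split became 12 higher and 70 lower. The calls leaned on E17.5 v2, the deepest library. Without it 3 genes were called, in a fit where the lone E17.5 library is assumed to vary like the E14.5 libraries. Without E17.5 v1, 85 were called, and without the Fev-Cre library 16 were called higher. With v1 batches 1 and 2 as separate blocks, an alternative chosen after seeing the data that leaves 2 residual degrees of freedom, 43 were called higher and 17 lower, with 41 of the 44 among them. In bulk sums of this kind, fewer cells with a transcript and less of it per cell cannot be told apart except where shares of cells are given.

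Prlr (ENSMUSG00000005268, chr15:10177238-10349180 on the plus strand of GRCm38) was absent from the counts at one stage and present at the other. It had 0 UMIs in each of the 4 E14.5 libraries, which allows up to 0.454 CPM over them. It had 4 UMIs (12.6 CPM) in E17.5 v1 and 934 UMIs (95.1 CPM) in E17.5 v2. Against a floor of 3 UMIs over all E14.5 beta cells, the E17.5 level of Prlr over both libraries pooled was at least 204-fold higher (edgeR adjusted p = 0.000792). This bound rests on E17.5 v2, since it is 119-fold for the mean of the libraries and 27.7-fold for E17.5 v1 alone. DESeq2 gave an adjusted p of 0.7, and without the kit term the edgeR adjusted p was 0.0552. Prlr was called in 12 of the 14 alternative fits that could test it, and it could not be tested without E17.5 v2, in cells with 1% to 10% insulin or in thinned sums. After each cell was thinned to 2000 non-insulin UMIs, 14.6% of the E17.5 v2 beta cells and 1.92% of the E17.5 v1 beta cells that were deep enough held a Prlr UMI. No E14.5 beta cell did. Before thinning the E17.5 shares were 33.8% and 7.69%. Immune cells, a check on free RNA, held none after thinning and 0.369% of them held one in E17.5 v2 before it. All other cells of each library together held 0.175 to 1.73 CPM. Here and below, levels of other cells are scaled to their own totals without TMM. Beta cell levels use TMM factors, which were 0.607 in E17.5 v2 and 0.966 to 1.27 in the other libraries. A factor below 1 raises the beta level, so the scales differ most in E17.5 v2.

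Both feedback inhibitors of this pathway were called higher. They stood under the abundance limit of the naming rule and are named after their values were seen. Cish (chr9:107296026-107302784) stood at 0, 0, 2.1 and 1.64 CPM at E14.5 and at 25.1 and 28.3 CPM at E17.5, with a log2 fold of 4.12 ± 0.56 (SE; edgeR adjusted p = 0.00445). Socs2 (chr10:95385362-95417180) stood at 0, 4.83, 1.05 and 1.64 CPM and at 25.1 and 24.6 CPM, with a log2 fold of 3.97 ± 0.58 (edgeR adjusted p = 0.00607). In both genes the E17.5 libraries lay above every E14.5 library, and the v1 values rest on 8 UMIs each. Both were called in each of the 15 alternative fits that tested them, which do not include the fit without E17.5 v2, cells with 1% to 10% insulin or thinned sums. Neither transcript was confined to beta cells. All other cells of the libraries held 3.25 to 8.73 CPM of Cish at E14.5 and 20.1 and 12.6 CPM at E17.5, so its level was higher at E17.5 there too. For Socs2 they held 22.2, 38.4, 6.3 and 12.4 CPM at E14.5 and 116 and 23.6 CPM at E17.5. These lay above beta cells in each E14.5 library and in E17.5 v1, and rose within each kit. On totals without TMM, beta cells of the E17.5 v2 wells held 15.2 and 14.7 CPM of Socs2. After thinning, 5.77% and 5.53% of beta cells held a Socs2 UMI in E17.5 v1 and v2, against 8.75% and 2.59% of immune cells. The matching shares for Cish were 3.85% and 6.33% of beta cells and 3.75% and 0.831% of immune cells.

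RefSeq lists 3 starts of Prlr on GRCm38.p6, and the 250 bases before each were searched for the STAT5 motif TTCNNNGAA, which reads the same on both strands. The window that holds a match is shown because Prlr had the smallest p of all genes. It lies at chr15:10223656-10223905 on the plus strand, with the match in capitals.
Prlr upstream window: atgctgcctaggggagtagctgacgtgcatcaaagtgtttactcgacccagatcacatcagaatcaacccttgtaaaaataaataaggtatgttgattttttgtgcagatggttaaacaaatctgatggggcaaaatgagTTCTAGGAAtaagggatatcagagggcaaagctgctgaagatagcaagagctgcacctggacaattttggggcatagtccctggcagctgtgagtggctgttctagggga
The match begins 110 bases before the start. Of all 32851 such windows 7.02% hold the motif. Among called genes with an entry, 2 of the 25 windows of 17 higher genes (8%; in Prlr and Nfix) and 0 of the 16 windows of 12 lower genes hold it, and the Cish window holds none. The match is a description of the sequence, and counts from the 3′ end do not tell which start was used.

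Of 30 genes of glucose sensing and insulin maturation, 27 were tested and 24 had a positive log2 fold. In 16 both E17.5 libraries lay above all E14.5 libraries, as they did in 7% of all tested genes. The list median was 0.64 on the log2 scale, against -0.02 for all genes. It was 0.20 in cells with 1% to 10% insulin at both stages, and 0.04 on library totals without TMM, where all genes had -0.68. A single member was called by edgeR, and 8 by DESeq2, all higher. Of all genes edgeR called 0.315% higher, and DESeq2 called 78 genes in either direction. Slc30a8 (ENSMUSG00000022315, chr15:52295553-52335798), which loads zinc into insulin granules, stood at 125, 126, 123 and 85.7 CPM at E14.5 and at 632 and 728 CPM at E17.5. It rose by a log2 fold of 2.60 ± 0.27 (edgeR adjusted p = 0.000792) and was called in all 21 alternative fits. After thinning, 16.7% to 22.5% of beta cells held a Slc30a8 UMI at E14.5, 63.5% in E17.5 v1 and 69.4% in E17.5 v2, and no immune cell did. Before thinning the shares were 33.3% to 49.2%, 76.9% and 94.7%, and at most 0.462% of immune cells.

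Other members of that list lay apart between the stages without reaching the threshold. Pcsk1, a convertase that cleaves proinsulin, was at 177 to 232 CPM at E14.5 and at 481 and 512 CPM at E17.5, with a log2 fold of 1.23 ± 0.25 (edgeR adjusted p = 0.0522). The second convertase, Pcsk2, was at 741 to 1294 CPM and at 1716 and 2326 CPM (log2 fold 1.09 ± 0.30). The convertase inhibitor Pcsk1n had a log2 fold of 1.25 ± 0.27, and the granule proteins Scg2, Scg3 and Scg5 had log2 folds of 1.46, 1.05 and 1.59. Scg5 differed widely between the E14.5 libraries, so the size of its fold depends on them. On the scale of the joint fit with alpha cells below, it was at 246, 930, 684 and 146 CPM at E14.5. At E17.5 it was at 1530 and 1443 CPM. Alpha cells of the E14.5 libraries held 196, 1008, 871 and 135 CPM. Iapp, the amyloid peptide released with insulin, was at 11216 to 20813 CPM at E14.5 and at 29956 and 50972 CPM at E17.5. Nnat, an imprinted gene that aids signal peptide cleavage of proinsulin, was at 3499 to 8271 CPM and at 11917 and 10361 CPM. Ucn3, a peptide of mature beta cells, was at 51.7, 0, 22 and 15.9 CPM at E14.5 and at 84.9 and 84 CPM at E17.5 (log2 fold 1.99 ± 0.49, edgeR adjusted p = 0.132, and 0.0188 with separate v1 batch blocks). The glucose transporter Slc2a2 (log2 fold 0.75), the phosphatase G6pc2 (0.62), the granule protein Sytl4 (0.56), the signal peptidase subunit Spcs3 (0.52) and carboxypeptidase Cpe (0.51) also lay apart. Vgf, Ero1lb, Tmem27, Spcs1 and Ptprn2 had positive folds with overlapping libraries. The folds of Ptprn, Ero1l, Chgb, the potassium channel subunit Abcc8, Pam and Papss2 lay between -0.09 and 0.08. Kcnj11, the other subunit of that channel, was below the filter, at no more than 0.524 CPM.

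The transcription factors of the beta cell had no shared direction. Of 30 listed, 26 were tested, 12 had positive and 14 negative folds, and the median was -0.04. Hopx, an atypical homeodomain protein, was the one called by edgeR, while DESeq2 called 1 gene of the list higher and 1 lower. Hopx stood at 69, 53.1, 12.1 and 10.8 CPM at E14.5 and at 132 and 93.7 CPM at E17.5, with a log2 fold of 2.29 ± 0.39 (edgeR adjusted p = 0.0197). At E14.5 its level differed by kit, and without the kit term the edgeR adjusted p was 0.589. Without E17.5 v2 its log2 fold was 1.11 (edgeR adjusted p = 0.973). Isl1, which all islet cell types use, was at 612, 536, 453 and 693 CPM at E14.5 and at 214 and 247 CPM at E17.5 (log2 fold -1.31 ± 0.30, edgeR adjusted p = 0.0859). Insm1, a zinc finger factor of endocrine differentiation, was also lower in both E17.5 libraries (-0.77 ± 0.34, edgeR adjusted p = 0.613). Pdx1, which drives insulin transcription, was at 370 to 444 CPM at E14.5 and at 405 and 327 CPM at E17.5. Its log2 fold was -0.17 ± 0.26. The libraries also overlapped for Nkx6-1 (log2 fold 0.20), Neurod1 (0.20), Pax6 (0.06), Foxa2 (0.08) and Nkx2-2 (-0.31). Etv1 and Mnx1 had log2 folds of -1.17 ± 0.58 and -1.18 ± 0.64. The folds of Glis3, Tshz1, Meis2, Bcl11a, Rfx3, St18, Nr3c1, Thra, Myt1, Mlxipl, Rfx6 and Hnf4a lay between -0.48 and 0.50. Mafa, Foxa1, Esrrg and Thrb were below the filter.

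**Figure D2:**
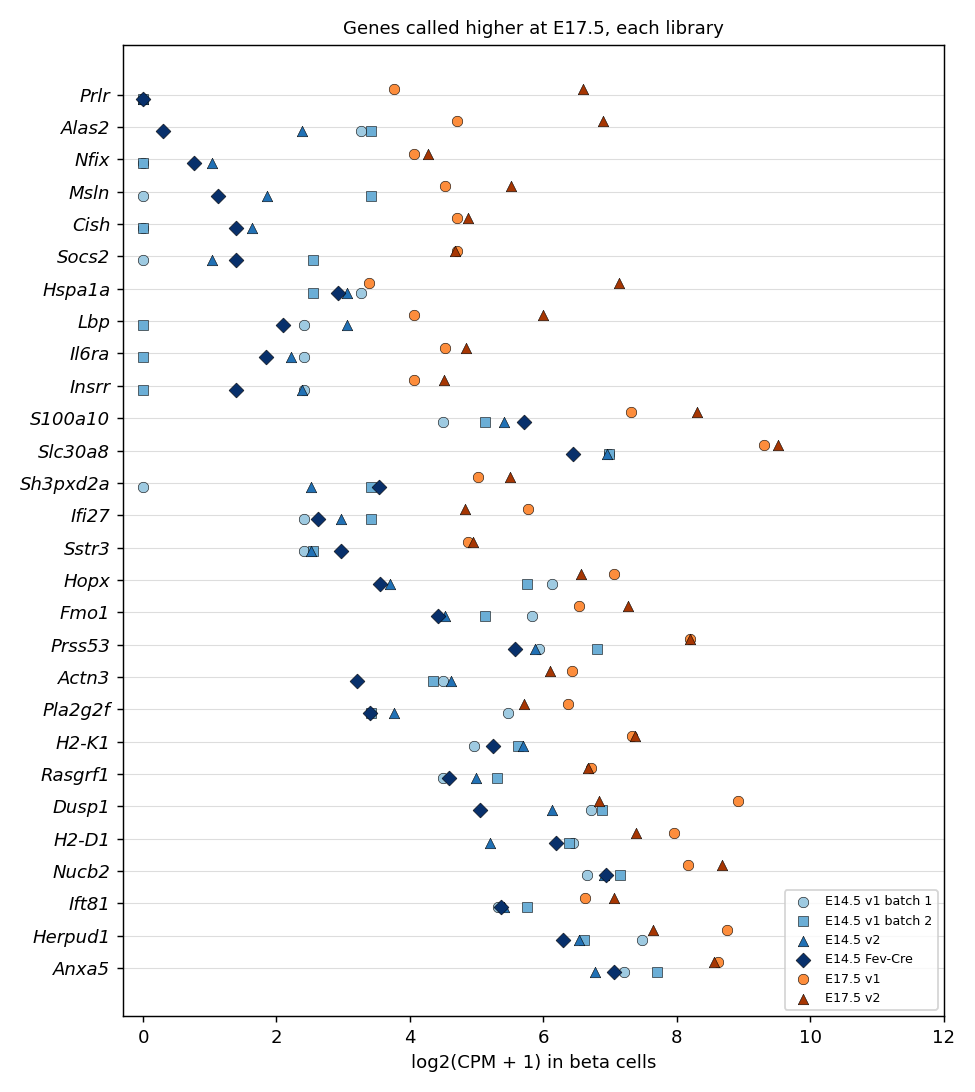
Level of the 28 genes called higher at E17.5 in beta cells, log2(CPM + 1) on the horizontal axis; symbols mark the 4 E14.5 and 2 E17.5 libraries. Prlr is at 0 in all 4 E14.5 libraries, and the stages overlap for Dusp1 alone.

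By the naming rule, 12 higher genes were abundant enough and at least as high in beta cells as in the rest of their libraries. Beside Prlr, Slc30a8 and Hopx these were Sh3pxd2a, Fmo1, Prss53, Actn3, Pla2g2f, Rasgrf1, Nucb2, Ift81 and Herpud1. Prss53, a serine protease (chr7:127885841-127890970), stood at 60.4, 111, 57.7 and 46.9 CPM at E14.5 and at 292 and 291 CPM at E17.5, with a log2 fold of 2.19 ± 0.28 (edgeR adjusted p = 0.00363). The other cells of the libraries held 1 to 2.35 CPM of it. Rasgrf1, an imprinted exchange factor for Ras, went from 21.6, 38.6, 30.9 and 23 CPM to 104 and 101 CPM. Nucb2, the precursor of nesfatin-1, went from 99.2, 140, 119 and 121 CPM to 286 and 409 CPM. Their log2 folds were 1.87 ± 0.31 and 1.55 ± 0.26. Fmo1, a flavin monooxygenase, was at 20.4 to 56.1 CPM at E14.5 and at 91.1 and 153 CPM at E17.5 (log2 fold 2.22 ± 0.38), and without E17.5 v2 its log2 fold was 1.02 (edgeR adjusted p = 1). The scaffold protein Sh3pxd2a (2.50), the actin crosslinker Actn3 (2.12), the secreted phospholipase Pla2g2f (2.01) and the ciliary transport protein Ift81 (1.48) completed the group. With separate v1 batch blocks Ift81 was not called (edgeR adjusted p = 0.0565). In cells of both stages with 1% to 10% insulin, 11 of these 12 genes could be tested and 1, Slc30a8, was called (log2 fold 1.80). There the log2 folds were 1.16 for Fmo1, 0.81 for Nucb2, 1.35 for Sh3pxd2a, 1.09 for Rasgrf1, 1.34 for Hopx, 1.45 for Actn3 and 0.82 for Ift81, each with an edgeR adjusted p of 0.999. For Prss53, Herpud1 and Pla2g2f they were 1.98, 1.34 and 2.39, with edgeR adjusted p of 0.367, 0.575 and 0.12.

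Genes of the endoplasmic reticulum had positive folds almost throughout. Of 37 folding and stress genes, 34 were tested and 33 had a positive fold. The median was 0.51, and on library totals without TMM it was -0.08 against -0.68 for all genes. Herpud1, part of the machinery that degrades misfolded proteins, was the one called, at 177, 96.6, 91.2 and 77.3 CPM at E14.5 and at 427 and 198 CPM at E17.5 (log2 fold 1.42 ± 0.27, edgeR adjusted p = 0.039). It was called in 11 of 21 alternative fits, and DESeq2 called 3 genes of the list, all higher. Of all genes edgeR called 0.315% higher, and DESeq2 called 78 in either direction. The chaperone Hyou1 (1.14), the translocon subunit Sec61a1 (1.14), the translocon-associated Ssr4 (1.22) and the co-chaperone Dnajb9 (1.02) lay apart without being called. Genes of the dissociation and immediate early response also had mostly positive folds, 22 of 29, with a median of 1.03. An unadjusted edgeR p below 0.05 was found for 16 of the 29 (55.2%), all higher, against 7.67% of all genes. In 8 of the 29 both E17.5 libraries lay above all E14.5 libraries, as in 7% of all genes. The list summed to 4629 to 5584 CPM at E14.5, 10940 CPM in E17.5 v1 and 5586 CPM in E17.5 v2. The sum was thus clearly raised in E17.5 v1 alone, while those 8 members were higher in both E17.5 libraries. Of its members, Dusp1, a phosphatase, was called at 484 CPM in E17.5 v1 and 113 CPM in E17.5 v2, against 32.1 to 116 CPM at E14.5. It was not called with separate v1 batch blocks (edgeR adjusted p = 0.0909). The heat shock gene Hspa1a was called at 140 CPM in E17.5 v2, and stood at 9.43 CPM in E17.5 v1 against 4.83 to 8.62 CPM at E14.5. The part of the longer dissociation in these values cannot be told apart from the stage.

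Among 30 hormone and nutrient receptors, 16 were tested. Prlr and Sstr3 were called higher, as were 0.315% of all genes. Sstr3, a somatostatin receptor, went from 4.31, 4.83, 4.72 and 6.79 CPM to 28.3 and 29.7 CPM (log2 fold 2.38 ± 0.43, edgeR adjusted p = 0.0289). The fatty acid receptor Ffar1 (1.08 ± 0.35) and the incretin receptor Gipr (0.75 ± 0.32) lay apart without being called, and Glp1r was below the filter. By edgeR, as by DESeq2, no gene was called among 17 ion channel genes tested, 25 of granule exocytosis, 36 of the cell cycle, 21 glycolytic and disallowed genes, 19 of the neuronal cytoskeleton, 8 of monoamine metabolism, 87 of oxidative phosphorylation, 82 ribosomal protein genes and 12 mitochondrial transcripts, the last of which were at 0 in every v1 library. An unadjusted p below 0.05 was found for 681 (7.67%) of all tested genes. The share was higher for 7 of 36 cell cycle genes (19.4%), 4 of 21 glycolytic and disallowed genes (19%), 4 of 25 exocytosis genes (16%) and 2 of 8 monoamine genes (25%). It was near that of all genes for 9 of 82 ribosomal protein genes (11%), 2 of 19 neuronal genes (10.5%) and 1 of 17 ion channel genes (5.88%). It was lower for 1 of 87 oxidative phosphorylation genes and 0 of 12 mitochondrial transcripts. Differences from the share of all genes were not tested. The medians of these lists ran from -0.41 for glycolytic and disallowed genes to 0.33 for ribosomal proteins. The cation channel Trpm5 (log2 fold 1.72 ± 0.38, edgeR adjusted p = 0.0715) and the vesicle GTPase Rab3b (1.43 ± 0.35) lay apart. Ccnd2, a cyclin of beta cell division, was at 9.66 to 118 CPM at E14.5, at 94.3 CPM in E17.5 v1 and at 537 CPM in E17.5 v2 (2.09 ± 0.45, edgeR adjusted p = 0.0631). With separate v1 batch blocks Trpm5 and Ccnd2 were called higher (edgeR adjusted p = 0.0327 and 0.00239).

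The remaining higher genes are named after their values were seen. The class I antigen presentation genes H2-K1 and H2-D1 had log2 folds of 1.96 ± 0.28 and 1.59 ± 0.29. H2-K1 was at 30.2, 48.3, 50.8 and 36.8 CPM at E14.5 and at 160 and 164 CPM at E17.5. Other cells held 30 to 45.4 CPM of H2-K1 at E14.5 and 181 and 132 CPM at E17.5. They held 27.6 to 68.1 CPM of H2-D1 at E14.5 and 310 and 130 CPM at E17.5, so levels differed with stage there too. On totals without TMM, the beta cells of the E17.5 v2 wells held 105 and 93.8 CPM of H2-K1. They held 101 and 102 CPM of H2-D1, and both genes were thus below the other cells of that library. S100a10, the partner of annexin A2, went from 21.6, 33.8, 41.4 and 51.1 CPM to 157 and 314 CPM (2.68 ± 0.27), while other cells of the E17.5 libraries held 739 and 563 CPM. The others were Nfix, Msln, Lbp, Il6ra, Insrr, Ifi27 and Anxa5, with log2 folds from 1.42 to 4.53. In E17.5 v1 the first 5 rest on 5, 7, 5, 7 and 5 UMIs. Insrr was called in 8 of 15 alternative fits and not by DESeq2 (adjusted p = 0.0677). Lbp was at 15.7 and 62.5 CPM in E17.5 beta cells and at 18.9 and 50.8 CPM in other cells. On totals without TMM, the beta cells of the E17.5 v2 wells held 38.6 and 37.2 CPM of Lbp. Anxa5 was not called with separate v1 batch blocks (edgeR adjusted p = 0.0505). In other cells Msln went from at most 0.896 CPM at E14.5 to 11.1 and 75.2 CPM at E17.5, against 22 and 44.8 CPM in E17.5 beta cells. Nfix (32.2 and 27.9 CPM) and Ifi27 (183 and 59.9 CPM) were higher in the other cells of both E17.5 libraries than in beta cells. Alas2, the first enzyme of haem synthesis in red cells, was called too, at 0.234 to 9.66 CPM at E14.5 and at 25.1 and 118 CPM at E17.5. The erythroid list summed to 4.22 to 4386 CPM at E14.5 and to 14550 and 54425 CPM at E17.5. With cells above 5% haemoglobin or with markers of other cells left out, Alas2 was not called (edgeR adjusted p = 0.474), while 40 of the 42 genes that could be tested were.

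The lower genes included 4 gut-type peptide hormones. Of these, secretin (Sct) lies outside the hormone list and was placed with the others after its values were seen. The incretin Gip (ENSMUSG00000014351, chr11:96024545-96030831) stood at 604, 2072.5, 948 and 327 CPM at E14.5 and at 44 and 73.5 CPM at E17.5. It fell by 3.78 ± 0.65 on the log2 scale (edgeR adjusted p = 0.0197), and other cells of the libraries held at most 16.4 CPM. Secretin, Sct (chr7:141278330-141279133), went from 147, 251, 116 and 81.5 CPM to 28.3 and 13 CPM (log2 fold -2.88 ± 0.35, edgeR adjusted p = 0.00251). Gip and Sct were the lower genes that met the naming rule. Cholecystokinin, Cck (chr9:121489824-121495694), went from 112, 145, 71.3 and 164 CPM to 6.29 and 6.31 CPM (-4.24 ± 0.47, edgeR adjusted p = 0.00135). Gastrin, Gast (chr11:100334407-100336996), went from 47.4, 121, 170 and 185 CPM to 3.14 and 15.3 CPM (-3.66 ± 0.43, edgeR adjusted p = 0.00192). Alpha cells, compared below, held more Cck and Gast than beta cells in every library. In all 4 peptides both E17.5 libraries lay below every E14.5 library. Without E17.5 v2 the log2 folds were -4.92 for Gip (edgeR adjusted p = 0.0463) and -4.68 for Gast (edgeR adjusted p = 0.0777). After thinning, 15% to 54.2% of beta cells held a Gip UMI at E14.5, against 9.62% and 8.36% at E17.5. The shares of Cck were 9.17% to 26.4% at E14.5 and 1.92% and 1.89% at E17.5. In the Fev-Cre library 9.23% of immune cells held a Gast UMI after thinning, beside 17.1% of beta cells, and its other cells held 320 CPM. Of 14 islet and gut hormone genes listed, 8 were tested. Gip, Cck and Gast were called lower, as were 0.18% of all genes. Pyy (log2 fold -1.23 ± 0.40) and Ttr (-0.99 ± 0.32) were lower in both E17.5 libraries without being called, and Npy, Ghrl and Ppy overlapped.

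**Figure D3:**
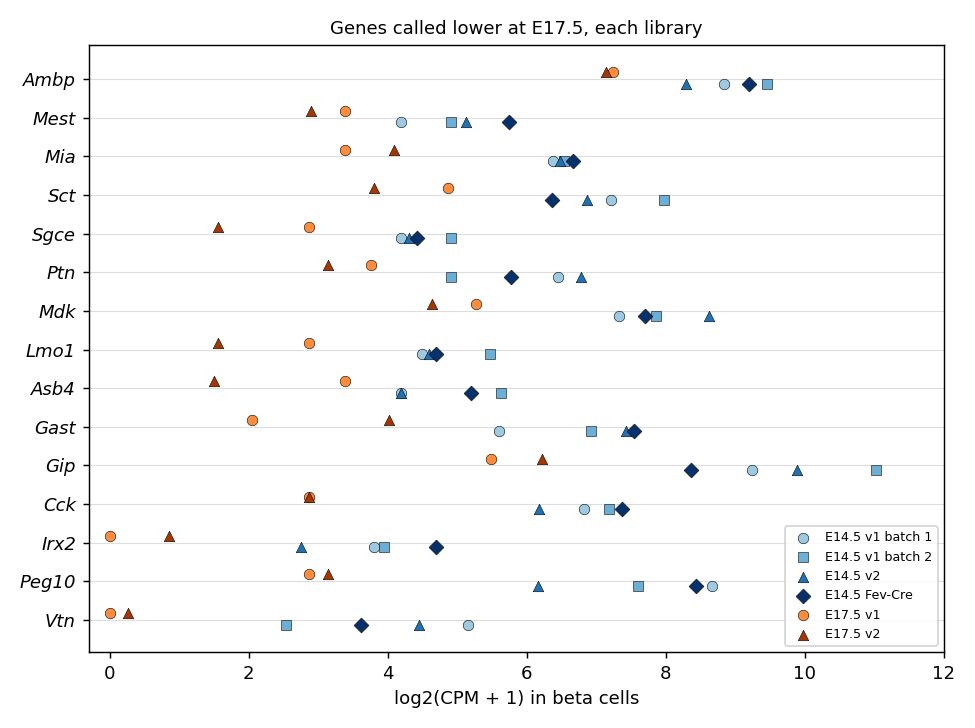
Level of 15 of the 16 genes called lower at E17.5 in beta cells, log2(CPM + 1) on the horizontal axis; symbols mark the 4 E14.5 and 2 E17.5 libraries. Both E17.5 libraries lie below all E14.5 libraries for each of the 15 genes.

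Most genes of the alpha cell list had negative folds in beta cells. Of 12 in the alpha list, 11 were tested (Gcg belonged to the rule) and 10 had negative folds. The median was -1.18, against -0.02 for all genes. edgeR called 3 of them and DESeq2 6, all lower. Of all genes edgeR called 0.18% lower, and DESeq2 called 78 in either direction. Irx2, an alpha cell transcription factor, went from 12.9, 14.49, 5.77 and 24.8 CPM to 0 and 0.814 CPM (log2 fold -4.30 ± 0.87, edgeR adjusted p = 0.0488). In E17.5 v1 Irx2 rests on 0 UMIs. Peg10, a gene derived from a retrotransposon, went from 405, 193, 70.8 and 346 CPM to 6.29 and 7.84 CPM (-4.88 ± 0.69, edgeR adjusted p = 0.00582), and without E17.5 v2 its log2 fold was -5.55 (edgeR adjusted p = 0.0777). In cells with 1% to 10% insulin neither was called, with log2 folds of -4.40 for Irx2 and -3.31 for Peg10 (edgeR adjusted p = 0.356 and 0.104). Summed over the list, the level was 10913 to 15248 CPM at E14.5 and 6710 and 6354 CPM at E17.5.

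Of 29 imprinted genes, 27 were tested and 11 had positive folds, with a median of -0.21. edgeR called 3 lower (Peg10, Sgce and Mest) and 1 higher (Rasgrf1), against 0.18% and 0.315% of all genes. DESeq2 called 4 lower and 2 higher. In cells with 1% to 10% insulin edgeR called none of 25, where 294 of all genes had an unadjusted p below 0.05, and without E17.5 v2 none of 22. Asb4, an imprinted gene outside that list, is given here after its values were seen. Sgce, a sarcoglycan (chr6:4674350-4747207), lies beside Peg10 (chr6:4747306-4760517) on the opposite strand and went from 17.2, 29, 18.9 and 20.4 CPM to 6.29 and 1.93 CPM (log2 fold -3.05 ± 0.56). Asb4 (chr6:5383386-5433022) went from 17.2, 48.3, 17.3 and 35.8 CPM to 9.43 and 1.83 CPM (-3.41 ± 0.66). Mest (chr6:30723547-30748465) went from 17.2, 29, 34.1 and 52.5 CPM to 9.43 and 6.41 CPM (-2.51 ± 0.48), while other cells of the libraries held 154 to 1438 CPM. Without E17.5 v2 the log2 folds were -1.84 for Sgce, -1.76 for Asb4 and -1.26 for Mest (edgeR adjusted p = 1 each). H19 had a fold of -2.64 ± 0.54 with overlapping libraries (edgeR adjusted p = 0.0519).

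Of 29 genes of endocrine progenitors, 24 were tested and 4 were called, all lower, against 0.18% of all genes. These were Cck and Gast, also in the hormone list, Peg10, also in the alpha and imprinted lists, and Mdk. Of the 24 genes, 19 had negative folds, with a median of -1.04. The median was -0.28 in v1 libraries alone (17 genes tested), -0.37 in thinned sums (16), -0.53 in cells with at least 5% insulin (22), -0.65 in cells with 1% to 10% insulin (23) and -0.42 without E17.5 v2 (23), where edgeR called none of them and 284 of all genes had an unadjusted p below 0.05. Mdk, the growth factor midkine, went from 160, 232, 394 and 207 CPM to 37.7 and 23.9 CPM (log2 fold -3.20 ± 0.44, edgeR adjusted p = 0.00452). Its relative Ptn, outside the list, went from 86.2, 29, 109 and 53.6 CPM to 12.6 and 7.84 CPM. Without E17.5 v2 the log2 folds were -2.36 for Mdk and -2.20 for Ptn (edgeR adjusted p = 0.201 and 0.843). Other cells held more of both than beta cells did in every library. The factors that define the progenitor steps were not called. Neurog3 stood at 4.31, 9.66, 78.6 and 13.6 CPM at E14.5 and at 0 and 7.94 CPM at E17.5 (-2.55 ± 0.78, edgeR adjusted p = 0.263). Fev stood at 108, 91.8, 93.8 and 100 CPM at E14.5, at 107 CPM in E17.5 v1 and at 19.1 CPM in E17.5 v2 (-1.24 ± 0.47), so that only the v2 library lay below the E14.5 range. Pax4 overlapped, and Sox11 lay apart (-2.70 ± 0.65, edgeR adjusted p = 0.113). The other lower genes were the secreted proteins Mia, Vtn and Ambp and the LIM protein Lmo1, with log2 folds from -6.06 to -1.80. The largest, that of Vtn, rests on 8, 1, 40 and 48 UMIs at E14.5 and 0 and 2 at E17.5. Other cells held more Vtn than beta cells in every library, at 17.4 to 106 CPM at E14.5 and 22.5 and 6.89 CPM at E17.5. Without E17.5 v2 the log2 fold of Lmo1 was -2.33. Vtn then stands at 0 UMIs at E17.5, so the size of its fold is not determined.

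**Figure D4:**
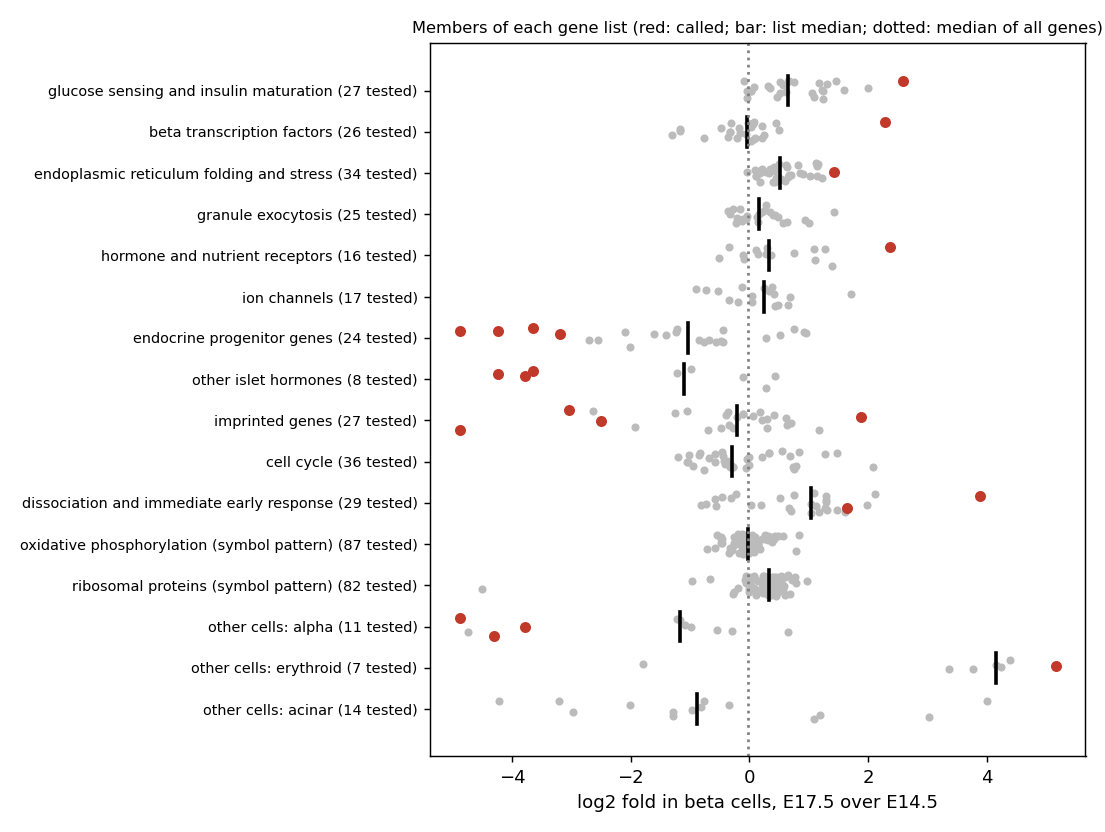
Log2 fold of each tested member of the gene lists in beta cells (horizontal axis, E17.5 over E14.5); red points were called, bars are list medians and the dotted line is the median of all genes, with Prlr left off. The glucose sensing and insulin maturation list has a median of 0.64 and the endocrine progenitor list one of -1.04.

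The change with stage was also compared with that of alpha cells from the same suspensions, chosen by the mirror rule (Gcg at least 1%, insulin under 1%). There were 30, 34, 112 and 566 alpha cells at E14.5 and 13 and 336 at E17.5, and those of E17.5 v1 gave 55016 UMIs. The test of the difference called 153 of 8161 genes (1.87%), 71 (0.87%) with the larger rise in beta cells and 82 (1%) with the larger rise in alpha cells. At any fold, 227 (2.78%) had an adjusted p below 0.05, of which 125 (1.53%) were toward beta cells. Of the 44 genes called in beta cells, 41 could be tested and 18 were called here. The larger rise was in beta cells for 7 of the 25 higher genes, and the larger fall for 11 of the 16 lower genes. DESeq2 called 24 genes, and without E17.5 v2 edgeR called 7. Levels compared with alpha cells are CPM on the scale of this joint fit.

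Slc30a8 was higher at E17.5 in alpha cells too, at 60.7, 160, 90.3 and 85.5 CPM at E14.5 and at 326 and 313 CPM at E17.5. The rise in beta cells was larger by 1.02 ± 0.21 on the log2 scale (edgeR adjusted p = 0.00158). Of the glucose sensing and insulin maturation list, 7 of 27 genes tested were called toward beta cells, and 0 in the other direction. These were Pcsk1, G6pc2, Chgb, Ucn3, Nnat, Vgf and Slc30a8. In that order they rest on 6, 1, 19, 2, 1, 2 and 21 alpha UMIs in E17.5 v1. G6pc2 was at 6.74 to 80.1 CPM in E14.5 alpha cells and at 15.5 and 16.6 CPM at E17.5. The stages overlapped for Vgf in beta cells. Pcsk1 was at 47.2, 89.5, 53.9 and 59.8 CPM in E14.5 alpha cells and at 93.3 and 30.2 CPM at E17.5, a difference of 2.14 ± 0.25 (edgeR adjusted p = 1.29e-07). Chgb, chromogranin B, was at 2233 to 2855 CPM in E14.5 beta cells and at 1823 and 3078 CPM at E17.5. In alpha cells it was at 1046 to 2574 CPM and at 295 and 715 CPM, so the difference lay in the lower level of alpha cells. Among transcription factors Nkx6-1 (1.06 ± 0.23) and Mlxipl (1.12 ± 0.27), a glucose-responsive factor, were called toward beta cells. Nkx6-1 was at 255 to 458 CPM in E14.5 beta cells and at 526 and 299 CPM at E17.5. Its alpha cells held 49.2 to 94.9 CPM and then 62.2 and 28.8 CPM. Mlxipl overlapped in beta cells, at 158 to 281 CPM and at 168 and 265 CPM. Its alpha cells held 9.42 to 53.9 CPM and then 15.5 CPM (1 UMI) and 16 CPM. Isl1 (-1.25 ± 0.20), Etv1 (-1.86) and Nr3c1 (-1.30) were called toward alpha cells. Isl1 was at 750 to 1041 CPM in E14.5 alpha cells and at 886 and 853 CPM at E17.5. Haemoglobin genes and Alas2 made up 5 of 5 erythroid genes tested that were called toward beta cells.

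By the naming rule the 6 genes with the largest difference toward beta cells were Derl3 (4.16), Bace2 (3.24), Dct (2.74), Prss53 (2.70), Slit1 (2.69) and Trpm5 (2.59). Their alpha cells held 0 UMIs in E17.5 v1, where 1 UMI is 15.5 CPM, and 1 to 12 UMIs in E17.5 v2, so the sizes and their order rest on few alpha UMIs (SE 1.19 for Derl3). Prss53 was at no more than 9.42 CPM in the alpha cells of any library (edgeR adjusted p = 0.00116). Bace2, a beta cell protease, was at 33.1, 95.1, 34.5 and 73.7 CPM in E14.5 beta cells and at 44.7 and 156 CPM at E17.5. In the alpha cells of E17.5 v2 all 6 genes were at no more than 3.26 CPM. Toward alpha cells the 6 were Asb4 (-2.95), C2cd4b (-2.26), Robo2 (-2.17), Sct (-2.01), Dbpht2 (-1.91) and Itpr1 (-1.70). C2cd4b was at 744, 650, 13.9 and 329 CPM in E14.5 beta cells and at 1114 and 13.9 CPM at E17.5, with no separation of the stages. Its alpha cells held 20.2, 23.6, 1.17 and 11.8 CPM and then 186.5 CPM (12 UMIs) and 2.45 CPM (9 UMIs). Robo2 went from 23.7, 37, 15 and 14.3 CPM to 37.8 and 48.6 CPM in beta cells, higher within both kits. Its alpha cells held 1, 1, 4 and 22 UMIs at E14.5 and 2 and 211 at E17.5. Sct was at 288 to 424 CPM in E14.5 alpha cells and at 140 and 177 CPM at E17.5, lower in both types (edgeR adjusted p of the difference = 9.53e-07). For Gip the difference was 0.20 ± 0.64 (edgeR adjusted p = 0.941), with 27 to 55 CPM in E14.5 alpha cells and 0 and 5.16 CPM at E17.5. Prlr was not tested here. In alpha cells it was at 0, 0, 0 and 0.498 CPM at E14.5 and at 0 and 9.24 CPM at E17.5. Cish was at 0, 0, 2.35 and 2.16 CPM in E14.5 alpha cells and at 31.1 CPM (2 UMIs) and 12.8 CPM at E17.5. Socs2 was at 6.74, 4.71, 7.04 and 0.332 CPM in E14.5 alpha cells and at 15.5 CPM (1 UMI) and 15.8 CPM at E17.5. Both were thus higher at E17.5 in alpha cells too, and their changes were not called as different between the types.

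**Figure D5:**
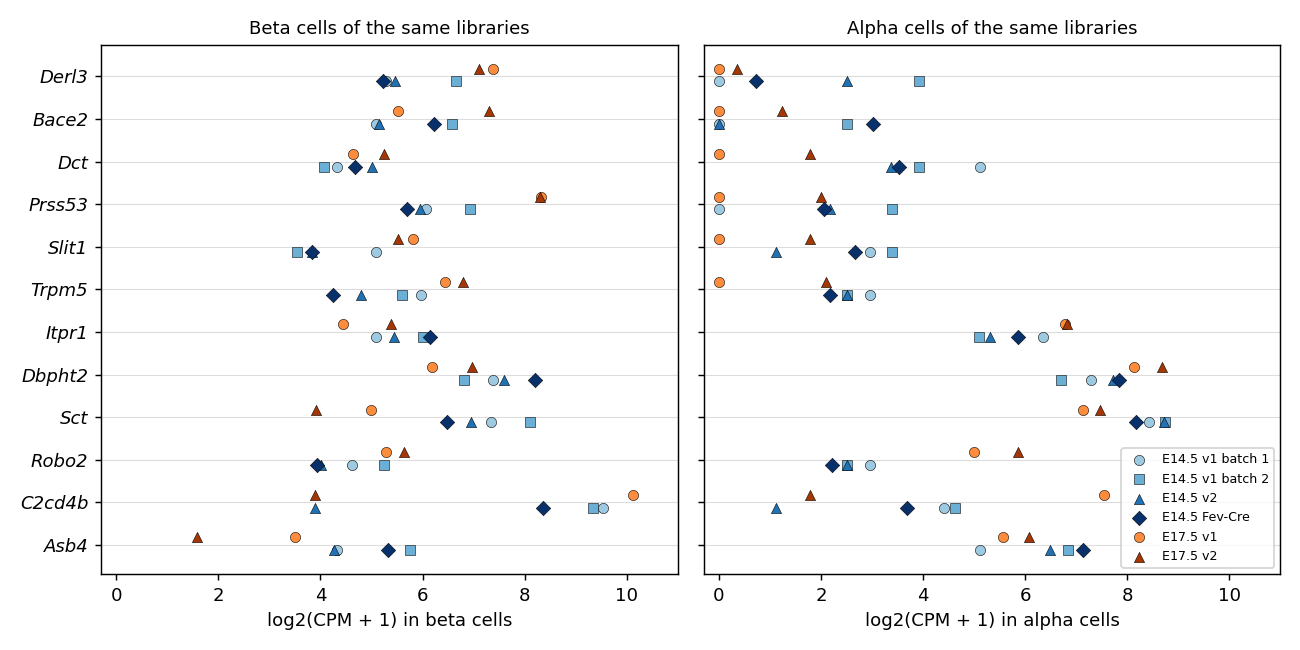
Level of the 12 genes named by the beta against alpha test, log2(CPM + 1) in beta cells (left) and alpha cells (right) of the same libraries; symbols mark the 4 E14.5 and 2 E17.5 libraries. Prss53 goes from at most 122 CPM to 320 and 316 CPM in beta cells and stays at or below 9.42 CPM in alpha cells.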

How the data were processed

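The authors processed the reads with Cell Ranger (1.1 for v1 and 2.1 for v2, per the labels; genome mm10) and deposited UMI counts per gene and cell. Of these, 27716 genes listed in all matrices were used. Here cells were selected and their counts summed per library with Python 3.11.15. Sums were tested in R 4.3.3 with edgeR 4.0.16 (quasi-likelihood, TMM, filterByExpr, kit as block, 3 residual degrees of freedom), with Benjamini-Hochberg adjustment over all tested genes. Beta and alpha cells were compared by the type-by-stage term with library as block (4 residual degrees of freedom). The genes of the selection rule were not tested. SE is the unshrunk coefficient over the root of the F statistic. DESeq2 1.42.0 was an alternative. On simulated counts for the 8875 genes of the beta comparison, 70% of genes changed 4-fold and 93% changed 8-fold were recovered. The changed genes were drawn from the more abundant ones only, so recovery of genes with few UMIs was not measured. Doublets were not called. A floor of 3 UMIs covers counting error only.

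Genes named are, per direction, the 12 called genes with the largest fold that have at least 30 CPM on average in the higher stage, the same direction within each kit and, in each library of that stage, at least the level of other cells, without rule genes, Xist, Y-linked, haemoglobin and other-cell list genes. The 6 per direction of the beta against alpha test follow the same filters. Members of the transcription factor and insulin maturation lists are named, except a few genes that are not reported here, and up to 4 leading members of other lists. The cells and lists were chosen with earlier results of these data known. Positions are GENCODE M21 (GRCm38). The counts used the mm10 reference and annotation supplied by 10x Genomics. Overlapping and near-identical genes, such as the haemoglobins and the H2 genes, may share reads. Promoter windows are from RefSeq (GRCm38.p6), where 29 of 44 called genes had an entry.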

Additional observations from a re-analysis of the deposited data

Results flagged for a closer look

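Each value below departs from the other E14.5 libraries by a gap test on 4 samples, which chance alone passes in about 1 in 20 groups. Of 93 values checked, 4 departed. In the Fev-Cre library Slc30a8 was low at 85.7 CPM, against 123 to 126 CPM in the others, and St18 was high at 52.5 CPM against 30.2 to 33.8 CPM. Pla2g2f was at 43.1 CPM in v1 batch 1, against 9.61 to 12.6 CPM. In v1 batch 2 Lmo1 was at 43.5 CPM against 21.6 to 24.8 CPM.

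Changes from E14.5 to E17.5 that differed between beta and alpha cells by edgeR's test of the difference were larger in the positive direction in beta cells for Derl3 (4.16 on the log2 scale), Bace2 (3.24), Dct (2.74), Prss53 (2.70), Slit1 (2.69) and Trpm5 (2.59). These 6 genes had 0 alpha UMIs in E17.5 v1 and 1 to 12 in E17.5 v2, so the sizes and their order are not well determined (SE 1.19 for Derl3). The difference was negative for Asb4 (-2.95), C2cd4b (-2.26), Robo2 (-2.17), Sct (-2.01), Dbpht2 (-1.91) and Itpr1 (-1.70). Of these, Robo2 was higher at E17.5 in the beta cells of both kits, and had 1, 1, 4 and 22 alpha UMIs at E14.5. C2cd4b was higher in E17.5 v1 beta cells than in either v1 library of E14.5, and its alpha cells held 1 to 71 UMIs per library.

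Libraries outside the comparison also held cells that met the rule. At E12.5, 5 of 13182 cells (0.0379%) of the v2 library did, with a median of 3.02% insulin and 0 Prlr UMIs, and 0 of 4618 cells of the v1 library. In the Fev-Cre library 397 of 398 beta cells (99.7%) held a UMI of the eGFP reporter, against 16 of 65 immune cells (24.6%), and 15 beta cells (3.77%) held one of tdTomato, against 8 immune cells (12.3%).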

How the results depend on the processing

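None of the 44 genes called in beta cells changed sign in any of the 21 alternative fits that tested it. The counts of calls moved more, and the cause was not tested. Counts are given as higher and lower at E17.5, then as the larger rise in beta and in alpha cells. DESeq2 called 42 and 36, and 8 and 16. Library totals without TMM gave 12 and 70, and 29 and 828. No filter on low counts gave 152 and 108, and 107 and 69. No kit term gave 9 and 5. Version 1 alone gave 6 and 2, and version 2 alone 103 and 99. Cells with 1% to 10% insulin gave 10 and 7, and 15 and 11. Sums thinned to the shallowest library gave 12 and 6, and 7 and 8. Without cells that held markers of other cells the counts were 35 and 26, and 47 and 69. The other settings stayed within 1.5 times. Leaving out 1 library at a time gave 2 to 55 higher, 1 to 30 lower, 3 to 111 with the larger rise in beta cells and 4 to 103 in alpha cells. The lowest were without E17.5 v2 (2, 1, 3 and 4), where 19 of 139 differences between beta and alpha cells changed sign. Without E17.5 v1 they were 55, 30, 111 and 95. Without the E14.5 v2 library the beta and alpha counts were 30 and 50, and without Fev-Cre 26 and 28. The labels give the stages a single shared batch number, v1 batch 2, and no number for v2, so replicate numbers do not pair all samples. A replicate block of v1 batch 1, v1 batch 2 and v2, chosen after seeing the data, gave 43 and 17. It kept 41 of the 44 calls, and Anxa5, Ift81 and Dusp1 were lost. Of single genes named, 2483 values in beta cells kept their side of the threshold, 208 lost it and 111 gained it. Those that kept it include genes called in neither fit. Only the 44 called genes could lose it, so all 208 losses fall on their values. In the v1 libraries 1 UMI is worth 3.14 to 4.83 CPM in beta sums and 4.71 to 15.5 CPM in alpha sums, so absence there was not detectable below those levels.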
